A study of Saccharomyces cerevisiae with 2 samples.

Results

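The 10 budding yeast histone genes described here were picked by name from a ribosome profiling table of 6592 named genes: HTA1 and HTA2 (H2A), HTB1 and HTB2 (H2B), HHT1 and HHT2 (H3), HHF1 and HHF2 (H4), HTZ1 (the H2A variant H2A.Z) and HHO1 (the linker histone, H1). All 10 were found. Both libraries came from cultures of SK1, a strain background that sporulates efficiently, taken after 4 hours in sporulation medium. One culture was wild type. The other lacked GIM3, a subunit of prefoldin, a chaperone complex that passes new actin and tubulin chains on for folding. Each genotype had 1 library, and the number of clones behind the deletion strain is not given in the sources used here. No replicate error exists, so no difference between genotypes could be tested, and every interval below is an exact 95% interval that covers counting error only.

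Core histones form the protein spool around which DNA is wound in each nucleosome. Yeast carries each core histone gene in a pair of copies, and each copy lies head to head with a copy of its binding partner, H2A with H2B and H3 with H4, so that neighbouring genes share a promoter region. Both H3 genes encode the same protein, as do both H4 genes, while the H2A copies and the H2B copies differ at a few residues. Core histone genes are transcribed mainly in S phase. Outside it the HIR complex represses HTA1-HTB1, HHT1-HHF1 and HHT2-HHF2, but not HTA2-HTB2. H2A.Z replaces H2A in nucleosomes near gene starts, and the linker histone binds DNA between nucleosomes.

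Values are RPM, footprint reads scaled to a library total of 1000000. The wild-type library held 40433177 reads and the gim3 deletion library 27864644. GIM3 had 1413 reads in wild-type cells and 3 in gim3 deletion cells. A difference was counted where gim3 deletion and wild-type values, each with 1 RPM added, were at least 2-fold apart, among the 4916 genes averaging 10 RPM or more (log2 ratios below are gim3 deletion over wild type). All 10 histone genes passed that filter, the lowest with 5168 wild-type reads. The early meiotic list had 0 of 16 compared genes past 2-fold, where 14.8% of all compared genes were. Its median log2 ratio was -0.10, 0.10 above the median gene. The middle meiotic list had 26 of 29 at least 2-fold higher and 0 lower, against 6.35% and 8.50% of compared genes. Its lowest gene, AMA1, was at the edge of the lower count with a log2 ratio of -0.997. The middle list took 0.462% of wild-type footprints and 3.94% of gim3 deletion footprints. Its part in the histone results was not tested, beyond the scaling without it in the closing section.

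All 8 core histone genes had fewer footprints in gim3 deletion cells, and both non-core genes had more. Together the 8 core genes took 0.705% of footprints in wild-type cells (0.703 to 0.708) and 0.436% in gim3 deletion cells (0.434 to 0.439), 1.62-fold less (1.61 to 1.63). HTA2 and HTB2 were at least 2-fold lower, 2 of 10 members, where 8.50% of all compared genes were. None was at least 2-fold higher, 0 of 10, against 6.35% of compared genes. The 2 genes past the threshold are neighbours on one chromosome, so they are not independent of each other. Without them the count was 0 of 8. At a 1.5-fold threshold, 6 of the 10 members were lower, all core genes, against 22.6% of compared genes. Once log2 ratios were centred on the median gene, HTB1 (-0.430), HHT1 (-0.434), HHF1 (-0.578) and HHF2 (-0.452) came within 1.5-fold. Only HTA2 and HTB2 then stayed lower by that threshold, while HTZ1 (0.741) and HHO1 (0.772) came to be higher by it. Without centring, 0 of the 10 members were higher by it, and the 22.6% is for uncentred ratios.

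The median log2 ratio of the 10 genes was -0.64, and the median of all compared genes was -0.20. A log2 ratio below 0 was found in 64.5% of compared genes, so that sign alone says little. All 8 core genes also lay below the median gene, but as neighbours and near-identical copies they are not 8 independent observations. Centring ratios on the median gene moved the background from 8.50% lower and 6.35% higher to 5.21% lower and 8.30% higher, but it left the sign of each of the 10 histone genes as it was. RPM is a share of each library's total, so a lower value need not mean fewer footprints in a cell. In these bulk cultures, fewer cells making a histone, fewer footprints per cell and a different total per cell cannot be told apart. With no mRNA libraries analysed here, neither can mRNA level and translation.

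**Figure D1:**
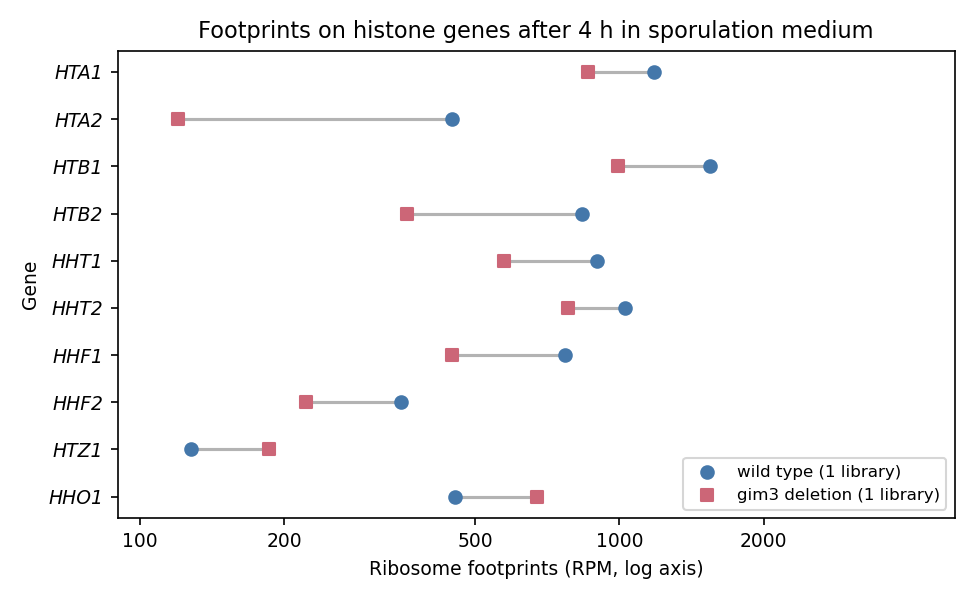
Footprints on each of the 10 histone genes in RPM on a log axis, with the wild-type library as circles and the gim3 deletion library as squares, 1 library each. The 8 core genes lie further left in gim3 deletion cells, most of all HTA2 (447 to 120 RPM), while HTZ1 and HHO1 lie further right.

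Of the H2A genes, HTA2 differed most of all members. HTA2 stood at 447 RPM in wild-type cells and at 120 in gim3 deletion cells, 3.71-fold lower (3.58 to 3.85). HTA1, the H2A copy with more footprints, stood at 1181 RPM and 859 RPM, 1.37-fold lower (1.35 to 1.40). The intervals of the copies are far apart, so their gap is larger than counting error. On the list of all 4916 ratios, counted from the highest, HTA2 ranked 4870 and HTA1 ranked 3456.

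The H2B genes showed the same order of copies with a smaller gap. HTB2 was at 835 RPM in wild-type cells and 360 in gim3 deletion cells, 2.32-fold lower (2.27 to 2.37). HTB1 was at 1541 RPM and 992 RPM, 1.55-fold lower (1.53 to 1.58). HTB1 had the most footprints of the 10 genes in both libraries, ranking 85 of the 4916 genes by RPM in wild-type cells and 180 in gim3 deletion cells.

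All 4 H3 and H4 genes were lower, and none passed 2-fold. HHT1 was at 897 RPM in wild-type cells and 575 in gim3 deletion cells, 1.56-fold lower (1.53 to 1.59). HHT2 was at 1029 RPM and 782 RPM, 1.32-fold lower (1.29 to 1.34), the smallest difference of a core gene. Both H3 copies therefore kept their order, with HHT2 above HHT1 in each library. HHF1 was at 771 RPM and 448 RPM, 1.72-fold lower (1.69 to 1.76). HHF2 was at 351 RPM and 222 RPM, 1.58-fold lower (1.53 to 1.63). The 4 H3 and H4 genes thus ran from 1.32-fold to 1.72-fold lower, all nearer to the median gene than HTA2 and HTB2 were.

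The variant and the linker histone differed the other way. HTZ1 was at 128 RPM in wild-type cells and 186 in gim3 deletion cells, a ratio of 1.45 (1.40 to 1.51). HHO1 was at 454 RPM and 673 RPM, a ratio of 1.48 (1.45 to 1.51). Both stayed within 2-fold, and the log2 ratios were 0.54 for HTZ1 and 0.57 for HHO1. CSE4, the centromeric H3 variant and no member of the set, was at 87.7 RPM and 74.0 RPM, a ratio of 0.844 (0.799 to 0.891). Its log2 ratio of -0.24 was close to that of the median gene.

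**Figure D2:**
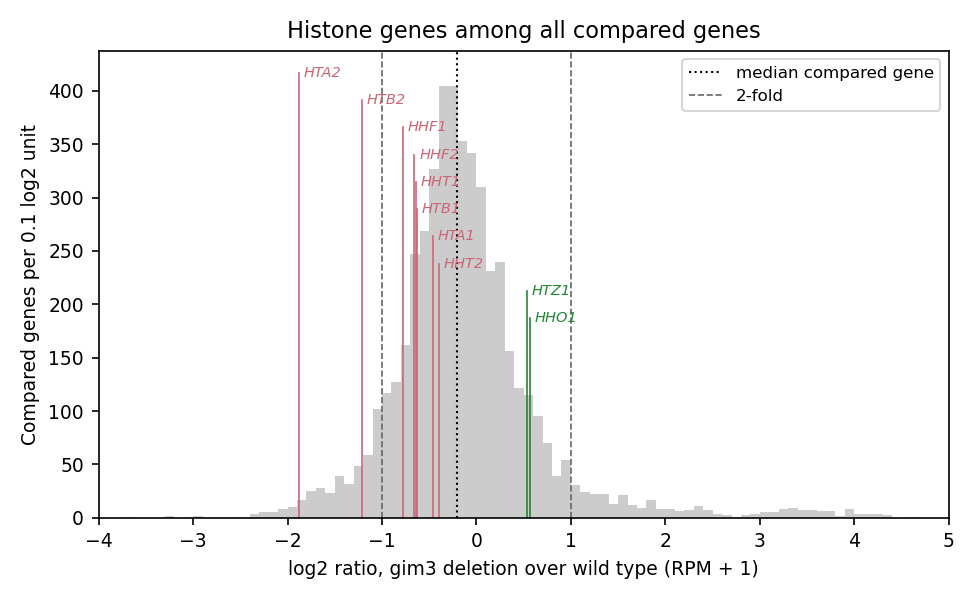
Histogram of the log2 ratio (gim3 deletion over wild type, RPM + 1) for the 4916 compared genes in bins of 0.1, with each histone gene marked by a labelled line. Dashed lines mark 2-fold and the dotted line the median gene at -0.20. HTA2 (-1.88) and HTB2 (-1.21) lie beyond the 2-fold line, the other 6 core genes between it and the median gene, and HTZ1 and HHO1 to the right.

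Copies of a core histone gene are near-identical, and how reads that match both copies were counted is not given in the sources used here. Sums over copies do not depend on how shared reads were divided, though they would miss any such reads that were discarded. H2A as a whole was 1.66-fold lower (1.64 to 1.69), H2B 1.76-fold lower (1.74 to 1.78), H3 1.42-fold lower (1.40 to 1.44) and H4 1.67-fold lower (1.65 to 1.70). No summed histone passed 2-fold, so the 2-fold calls of HTA2 and HTB2 rest on the division between copies. The 4 H2A and H2B genes together were 1.72-fold lower (1.70 to 1.73), and the 4 H3 and H4 genes 1.503-fold lower (1.49 to 1.52).

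The division itself differed between the libraries for H2A and H2B. HTA1 held 72.5% of H2A footprints in wild-type cells (72.2 to 72.9) and 87.7% in gim3 deletion cells (87.3 to 88.1). HTB1 held 64.9% of H2B footprints (64.6 to 65.2) and 73.4% (72.9 to 73.8). For both, the first copy took a larger part in gim3 deletion cells. The H3 and H4 shares moved less. HHT1 held 46.6% of H3 footprints (46.2 to 46.9) and 42.4% (41.9 to 42.9), and HHF1 held 68.7% of H4 footprints (68.3 to 69.2) and 66.9% (66.2 to 67.5).

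**Figure D3:**
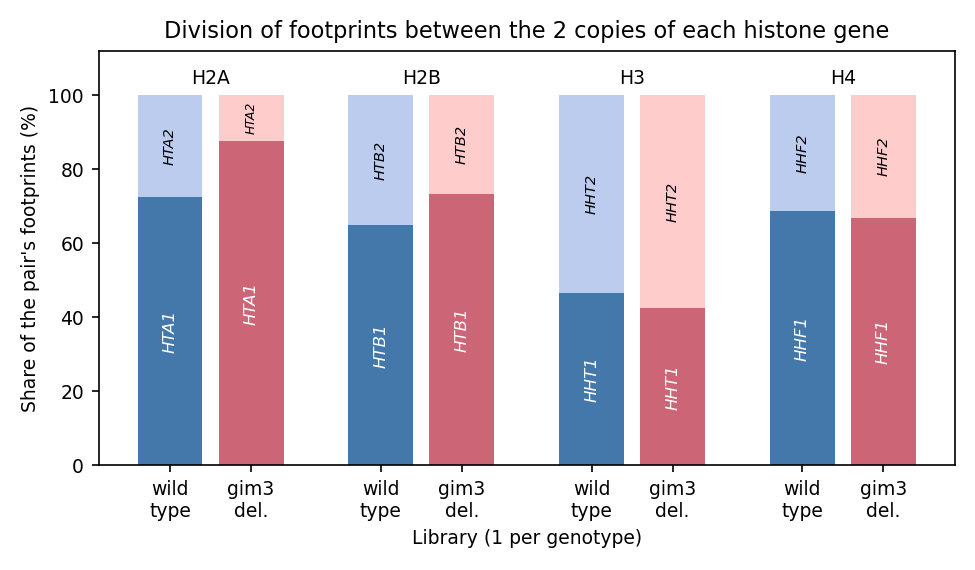
Share of each histone's footprints, in percent, that was assigned to each of its 2 gene copies, for the wild-type (left bar of each pair) and gim3 deletion (right bar) libraries. The HTA1 part is 72.5% in wild-type and 87.7% in gim3 deletion cells and the HTB1 part 64.9% and 73.4%, with smaller differences for H3 and H4.

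Duplicated ribosomal protein genes were set beside such gaps as another group of paired copies. How alike their copies are, next to the histone copies, was not measured. Among 53 pairs with both copies compared, the log2 ratios of the copies differed by a median of 0.34, and by 1.72 at most (RPL15). All copies in these pairs but RPS28B (0.21) had log2 ratios below 0. Whether the size of a gap goes with such lowering was not tested. The gap between HTA1 and HTA2 was 1.43 on the log2 scale, and 2 of the 53 pairs had a wider one. The gap between HTB1 and HTB2 was 0.58, with 8 of 53 wider. The gaps were 0.24 for H3 and 0.13 for H4, with 32 and 43 of the 53 pairs wider.

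Locus sums, unlike sums over copies, depend on how shared reads were divided between copies. By locus, HTA2-HTB2 on chromosome II stood lowest. Its 2 genes together were at 1283 RPM in wild-type cells and at 481 in gim3 deletion cells, 2.67-fold lower (2.62 to 2.72). HHT1-HHF1, also on chromosome II, was 1.63-fold lower (1.61 to 1.65). HTA1-HTB1 on chromosome IV was 1.47-fold lower (1.45 to 1.49) and HHT2-HHF2 on chromosome XIV 1.37-fold lower (1.35 to 1.39). The intervals of the 4 loci do not overlap, which speaks of these libraries and not of the genotypes. Genes of one locus differed from each other by 0.14 to 0.26 on the log2 scale at 3 loci and by 0.67 at HTA2-HTB2. The 6 core genes outside HTA2-HTB2 were together 1.49-fold lower (1.48 to 1.498).

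Genes next to the loci were looked at in the same way, taking gene order from the R64 reference table. UTP20, a ribosome biogenesis factor beside HTA2, was 2.06-fold lower (1.96 to 2.17), and ECM15 beside HTB2 was 1.54-fold lower (1.43 to 1.65). IPP1, the inorganic pyrophosphatase beside HHT1, was 1.99-fold lower (1.96 to 2.02), and ADK1, an adenylate kinase beside HTA1, 1.70-fold lower (1.65 to 1.75). SIW14 beside HHT2 was 1.21-fold lower (1.09 to 1.33), close to the median gene at 1.15-fold, and KTR5 beside HHF2 was 1.45-fold lower (1.25 to 1.68). Beside HTZ1, HRD1 had a ratio of 1.04 (0.998 to 1.09). Beside HHO1, TBF1 had a ratio of 0.940 (0.873 to 1.01) and NAN1 one of 0.763 (0.694 to 0.838). CRF1, FLR1 and PLB3 had under 10 RPM in both libraries. That table shows no overlap of a histone gene with a neighbouring protein-coding gene.

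Levels of different histones were compared per coding length, in RPM per kb. In the wild-type library H2B was highest at 6001 RPM per kb, followed by H3 at 4686, H2A at 4082 and H4 at 3596. In the gim3 deletion library H2B was at 3416 and H3 at 3304, with H2A at 2456 and H4 at 2148. The order was the same in both libraries, but H2B and H3 lay closer together in gim3 deletion cells. H2A over H2B was 0.680 (0.674 to 0.687) in wild-type cells and 0.719 (0.708 to 0.730) in gim3 deletion cells. H3 over H4 was 1.30 (1.29 to 1.32) and 1.54 (1.51 to 1.57). As summed RPM over summed length of all 4 genes on each side, a measure that weights longer genes more than the sum of RPM per kb does, H2A and H2B over H3 and H4 was 1.19 (1.19 to 1.20) in wild-type cells and 1.05 (1.03 to 1.06) in gim3 deletion cells. Footprint density differs between genes for reasons other than protein output, so these are ratios of footprints and not of proteins.

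The larger differences lay between core and non-core histones. H2A footprints per length were 12.9 times those of H2A.Z in wild-type cells (12.6 to 13.3) and 5.35 times in gim3 deletion cells (5.20 to 5.52). HHO1 per length stood at 0.143 of H2A (0.141 to 0.145) in wild-type cells and at 0.353 (0.346 to 0.359) in gim3 deletion cells. Relative to H4, HHO1 went from 0.162 to 0.403. Such ratios within a library do not depend on the scaling of totals.

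**Figure D4:**
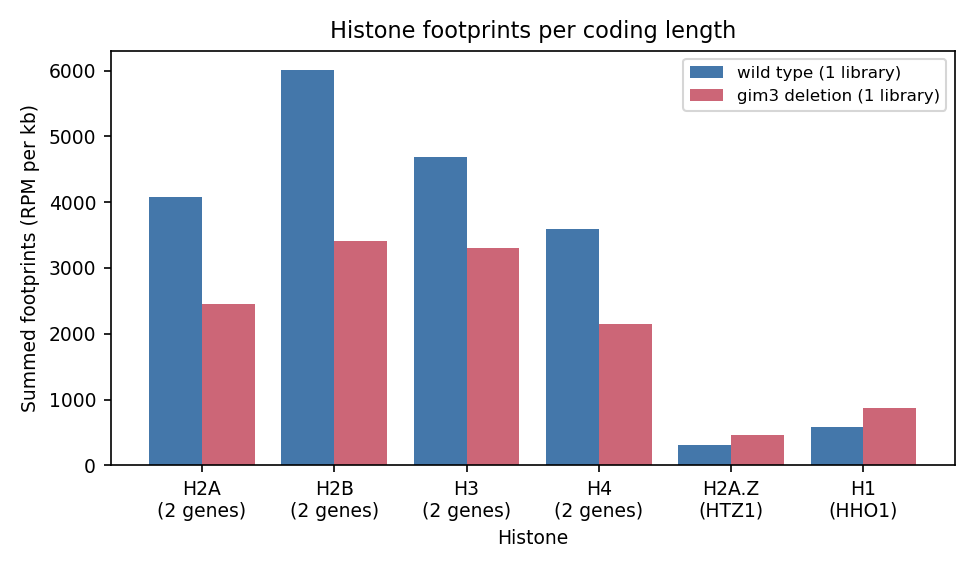
Footprints per coding length in RPM per kb, summed over gene copies, for each histone in the wild-type and gim3 deletion libraries, 1 library each. The 4 core histones have lower bars in gim3 deletion cells (H2B from 6001 to 3416), and H2A.Z and H1 have higher ones.

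Most histone genes were among the genes with more footprints in both libraries. The median member stood at percentile 96.1 of compared genes by RPM in wild-type cells and at 92.6 in gim3 deletion cells. HTA2 differed most, at rank 413 and rank 1481 by RPM, while HTZ1 was at rank 1463 and rank 1025. The 520 other genes with at least the wild-type RPM of the lowest core gene had a median log2 ratio of -0.20, with 11.5% at least 2-fold lower. The 1006 other compared genes of 312 to 777 bases, the length range of the histone genes, had a median of -0.11, with 9.15% at least 2-fold lower. The core histone median was -0.65, below both, but neither set was matched to the core genes. The first was picked on wild-type RPM alone, and the core genes run only from 312 to 411 bases.

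The 5 genes nearest to the median histone levels of the 2 libraries, by distance on the log2(RPM + 1) scale, were ETR1 (0.177), MGA2 (0.216), BBC1 (0.218), PRO3 (0.238) and SMC1 (0.240). With 2 libraries, such likeness rests on 2 values per gene.

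Counts for lists of related genes are read against 8.50% of compared genes at least 2-fold lower and 6.35% at least 2-fold higher. Of 11 compared regulators of histone transcription, 1 was at least 2-fold lower and none was higher, near those shares. Log2 ratios were below 0 for 10 of the 11, where 64.5% of compared genes were, and 7 lay below the median gene. The median log2 ratio was -0.45. SPT21, which with Spt10 activates HTA2-HTB2 and HHT2-HHF2, was at 87.5 RPM in wild-type cells and 46.1 in gim3 deletion cells, a ratio of 0.527 (0.494 to 0.562). SPT10 had a ratio of 1.02 (0.943 to 1.10). Of the loci they activate, HTA2-HTB2 was 2.67-fold lower and HHT2-HHF2 1.37-fold lower, and a link was not tested. The HIR subunits HIR1, HIR2, HIR3 and HPC2 had ratios of 0.976, 0.753, 0.640 and 0.942. ASF1, a chaperone of H3 and H4 that works with HIR, was the one past 2-fold at 2.09-fold lower (1.94 to 2.26), and it turned to within 2-fold once centred.

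Histone chaperones had 2 of 16 compared genes at least 2-fold higher and 1 lower, ASF1 again, counts too small to set apart from 6.35% and 8.50%, and a median of -0.47. The subunits of CAF-1, which deposits H3 and H4 behind replication forks, went different ways. MSI1 was at 90.7 RPM in wild-type cells and 239 in gim3 deletion cells, 2.63-fold higher (2.53 to 2.74), while RLF2 and CAC2 had ratios of 0.524 and 0.627. SPT2 was the other higher gene at 3.24-fold (3.03 to 3.47). SPT16 and POB3, the subunits of FACT, had ratios of 0.529 and 0.675, and NAP1, a chaperone of H2A and H2B, 0.627. Of 8 genes of histone import and turnover 0 passed 2-fold, with a median of -0.66, and the importin gene KAP123 had a ratio of 0.514.

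Of 13 compared genes for the SWR1 complex and the H2A.Z chaperone, which place H2A.Z in chromatin, 0 passed 2-fold in either direction, where 14.8% of all compared genes did, and the median of -0.14 lay 0.06 above the median gene. SWR1, the ATPase that exchanges H2A for H2A.Z, had a ratio of 1.02 (0.929 to 1.11), beside 1.45 for HTZ1 itself. RVB1 was lowest at -0.47 and VPS71 highest at 0.64 on the log2 scale, a ratio of 1.57 (1.47 to 1.68) that is further from 1 than that of HTZ1.

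Among enzymes that modify histones, a few deacetylase genes stood far out. HST1, a deacetylase that works with the Sum1 repressor of middle meiotic genes, was at 25.7 RPM in wild-type cells and 266 in gim3 deletion cells, 10.4-fold higher (9.70 to 11.1). HST4 was 4.23-fold higher (3.95 to 4.54) and HST3 3.32-fold higher (3.16 to 3.49). Both remove the acetyl mark that newly made H3 carries in its core. The other 12 of the 15 deacetylase genes did not pass 2-fold, for a list median of -0.02, which was 0.18 above the median gene. Acetyltransferase genes had 1 of 16 lower and 0 higher, and a median of -0.25. The lower gene was SAS2, at 2.05-fold, and SAS4, of the same complex, had a log2 ratio of 0.99. Once centred SAS2 was within 2-fold and SAS4 past it at 1.19, so the count of this list turned to 0 lower and 1 higher. Genes of histone methylation and H2B ubiquitination had 2 of 18 higher, the demethylase gene JHD2 at 2.12-fold and GIS1 at 2.69-fold, and 0 lower, with a median of -0.23. Nucleosome remodellers had 0 of 15 past 2-fold and a median of -0.36.

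DNA replication genes, which like core histones serve S phase, had 5 of 50 at least 2-fold lower and 1 higher, with the lower count near the background of 8.50%. Once centred these counts were 3 and 2, where 5.21% and 8.30% of compared genes were lower and higher. Their median was -0.42. MRC1, a fork protein, was 2.83-fold lower (2.60 to 3.08) and RNR1, of ribonucleotide reductase, 2.56-fold lower (2.51 to 2.62). CDC9, RAD27 and CTF4 were the others, and CLB6, an S-phase cyclin, was 3.35-fold higher. The replication median was less far below the median gene, by 0.21, than that of the 8 core histone genes, by 0.44. No test of that difference was possible.

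**Figure D5:**
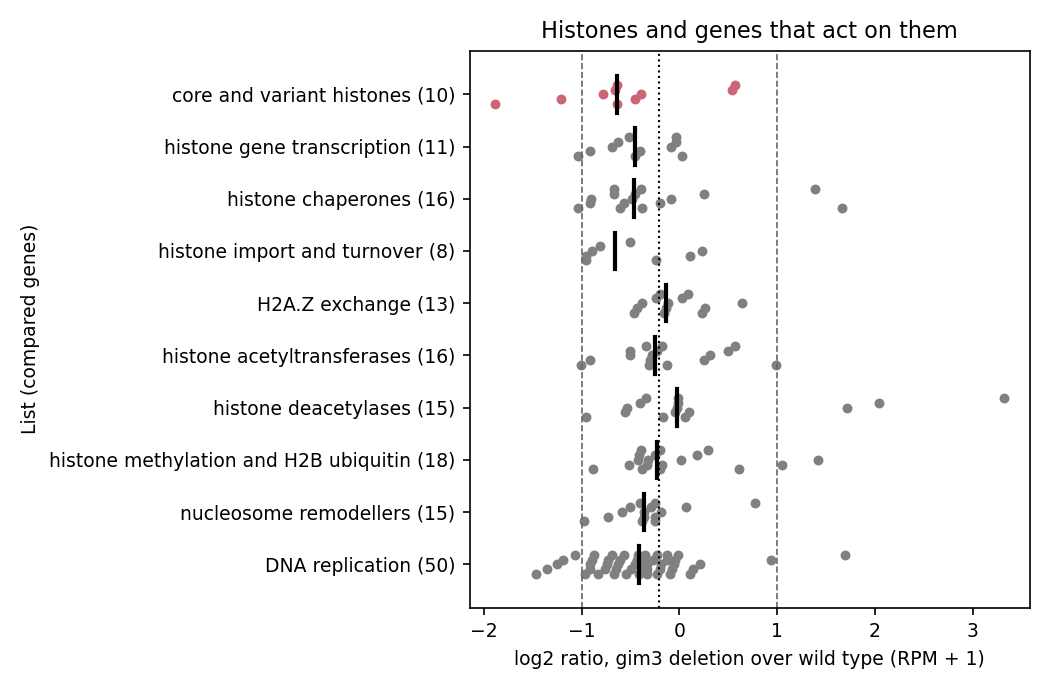
The log2 ratio (gim3 deletion over wild type, RPM + 1) of every compared gene in the histone set and 9 lists of related genes, with the number of genes in brackets, thick bars at list medians, dashed lines at 2-fold and a dotted line at the median gene. The histone median is at -0.64, the DNA replication median at -0.42, and the 3 rightmost deacetylase points are HST1, HST4 and HST3.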

How the data were processed

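The authors deposited 1 table of footprint values per gene, with 1 column per library. Each column sums to 1000000, so the deposited values are RPM, not divided by gene length. All values (100% in both libraries, within 0.001 of a read) were whole multiples of the smallest, which gave the read numbers. The submitters' processing notes name STAR, Bowtie2 and SAMtools, without versions or roles. For genome build and reads matching several places, the treatment is not given in the sources used here. The 86 lines without a gene name (0.121% of wild-type and 0.124% of gim3 deletion reads) were left out of comparisons but kept in the deposited totals.

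Log2 ratios used a pseudocount of 1 RPM, which understates differences of low genes. Folds are RPM ratios without a pseudocount, and their 95% intervals are exact (Clopper-Pearson), from how reads divided between libraries. Duplicate PCR reads cannot be told from separate molecules. The count test that fits recovered reads needs replicates and was not run, so it calls no genes here. Lengths and gene order come from the R64 RefSeq table, matched by name for 4884 of 4916 compared genes and all 10 histone genes. No coordinates are printed because the files' build is not known.

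Members, lists and rules were chosen with earlier results of these data known. Named genes were the 10 histone genes, CSE4, their neighbours, the extremes of each list, genes past 2-fold and the 5 nearest genes. Other list members are examples chosen after their values were seen. Software was SciPy 1.17.1 and statsmodels 0.14.6 under Python 3.11.15, with pandas 2.3.3, numpy 2.4.6 and matplotlib 3.10.9.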

Additional observations from a re-analysis of the deposited data

How the results depend on the processing

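With 1 library per genotype, p-values, leaving out replicates and paired fits were not available. No paired analysis was possible because the groups share fewer than 2 replicate numbers. All 8 core genes had log2 ratios below 0, and HTZ1 and HHO1 above 0, in the main setting and under 10 alternatives of pseudocount, filter, scaling and trend. In each of those 2 members passed the 2-fold threshold downward and 0 upward. Over these settings the share of compared genes past it ran from 5.07% to 9.03% downward and from 5.88% to 8.34% upward. HTB2 was only just past it when centred on the median gene (-1.005) and with a trimmed mean of ratios (-1.016). With a 1.5-fold threshold and uncentred ratios 6 members were lower, where 22.6% of compared genes were, and 0 members were higher. Once ratios were centred on the median gene, only HTA2 and HTB2 were lower by that threshold, and HTZ1 (0.741) and HHO1 (0.772) were higher. The shares of compared genes for that setting were not computed. Leaving out HTA2 and HTB2, an alternative chosen after seeing the data, left 0 lower and a median log2 ratio of -0.55.

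The histone median of -0.64 became -0.43 when centred on the median gene, -0.44 with a trimmed mean of ratios, -0.59 with totals without the middle meiotic list and -0.55 with a lowess trend on level removed (fraction 0.5). Each of these shifts follows from the alternative's own construction. Of 100 single-gene values under alternatives, 41 moved beyond their counting interval and 0 reversed. Without division by length, H3 over H4 was 1.72 in the wild-type and 2.03 in gim3 deletion cells, and H2A with H2B over H3 with H4 was 1.31 and 1.15. By RPM per kb the median member stood at percentile 98.8 and 96.9. Summing copies gives no copy share. Read depth limits none of the histone values, since the smallest read number behind a member was 3357, but nothing here measures the spread between cultures.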
